A study of Homo sapiens with 4 samples.

Results

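The enzymes that build purine, pyrimidine and deoxynucleotides were followed in RPMI 8226 cells, an established human myeloma line, in which CELF2 had been targeted with an antisense oligonucleotide of the locked nucleic acid type (LNA ASO). An LNA ASO is a short synthetic strand, built with modified sugars, that binds an RNA of matching sequence, and CELF2 is an RNA-binding protein of splicing and mRNA stability. The members are 30 genes listed by name for their place in nucleotide synthesis, a list drawn up with earlier results of these data known, and all 30 were found among 78932 gene rows of the count table. The group given the CELF2 LNA ASO at 5 nM held 2 libraries, and the group given a control LNA ASO, for which the labels give no dose, held 2 libraries, all at 72 hours. Every library thus comes from transfected cells of a single line, and no untransfected cells are among them. Whether each library stands for its own culture is not said in the labels, and the p-values therefore rest on library-to-library spread that could be technical.

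Nucleotides are made either from small precursors (de novo synthesis) or by recovering bases and nucleosides (salvage). The de novo purine route and the recovery of purine bases need phosphoribosyl pyrophosphate (PRPP). The de novo purine route ends in inosine monophosphate (IMP), from which AMP and GMP branch off, while the pyrimidine route ends in UMP and, after phosphorylation, CTP. Ribonucleotide reductase turns ribonucleotides into deoxynucleotides for DNA, and thymidylate comes either from dUMP or from salvaged thymidine. Many of these genes are known to be most active in growing and dividing cells, and drugs against several of the enzymes are used in blood cancers.

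Total counts were 26061900 and 23599190 in the CELF2 ASO libraries and 29161298 and 24493148 in the control libraries. The targeted gene, CELF2 (ENSG00000048740), had 56.6 and 48.8 CPM (the read count scaled by library size, here with the TMM method) with the CELF2 ASO, against 128 and 128 CPM with the control ASO, a fall of 2.43-fold (edgeR adjusted p = 2.88e-05). The biological coefficient of variation was 13.7% within the CELF2 ASO pair and 3.65% within the control pair. Of 12 plasma cell and myeloma markers, 11 were expressed enough to be tested and CD27 was near 0. They moved both ways, 4 higher and 5 lower, with log2 fold changes of 1.28 for CD38, -1.22 for SDC1 and -2.02 for GPRC5D. Of 20 markers of other cell types, 8 were tested and 5 (LYZ, S100A8, FCGR3A, KRT19 and HBA1) had no count in any library. Of those tested, 4 were called lower (EPCAM, CD14, COL1A1 and S100A9) and none higher. For both marker lists the background is wide, since 27.9% of all tested genes were called lower and 27.5% higher. The summed level of these 20 markers was 90.1 and 90.7 CPM in the CELF2 ASO libraries and 129 and 126 CPM in the control libraries, most of it from EPCAM (37.7 and 30.3 CPM with the CELF2 ASO, 62.2 and 63.7 CPM with the control) and KRT18 (46.0 and 51.7 CPM with the CELF2 ASO, 57.3 and 52.5 CPM with the control). The part of these markers in the later results was not tested.

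Nucleotide synthesis genes were mostly lower with the CELF2 ASO. Of the 30 members, all of which passed the filter on low counts, 23 fell, 2 rose and 5 did not pass the threshold (edgeR quasi-likelihood test, Benjamini-Hochberg adjusted p under 0.05 over 19511 genes). Among all tested genes, 55.5% passed, 27.9% lower and 27.5% higher, so a fall was called in 76.7% of the members against 27.9% of all genes. Well-expressed genes in general fell more often in these libraries. Among the 8677 genes with a mean of at least 10 CPM, a limit chosen after the data were seen, 70.5% passed, 44.3% lower and 26.2% higher, against 23 lower and 0 higher of the 27 members above it. The median log2 fold change was -0.77 over the members, -0.17 over the genes above that limit and 0.04 over all tested genes. The members together had 2753 and 2598 CPM with the CELF2 ASO and 4766 and 4808 CPM with the control ASO, a ratio of 0.559. The 2 groups of libraries did not overlap for 28 members, 26 of them with the CELF2 ASO below, where 79.6% of all tested genes lay apart and 38.4% did so in that direction. In bulk RNA, fewer dividing cells and less RNA of these genes per cell cannot be told apart.

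**Figure D1:**
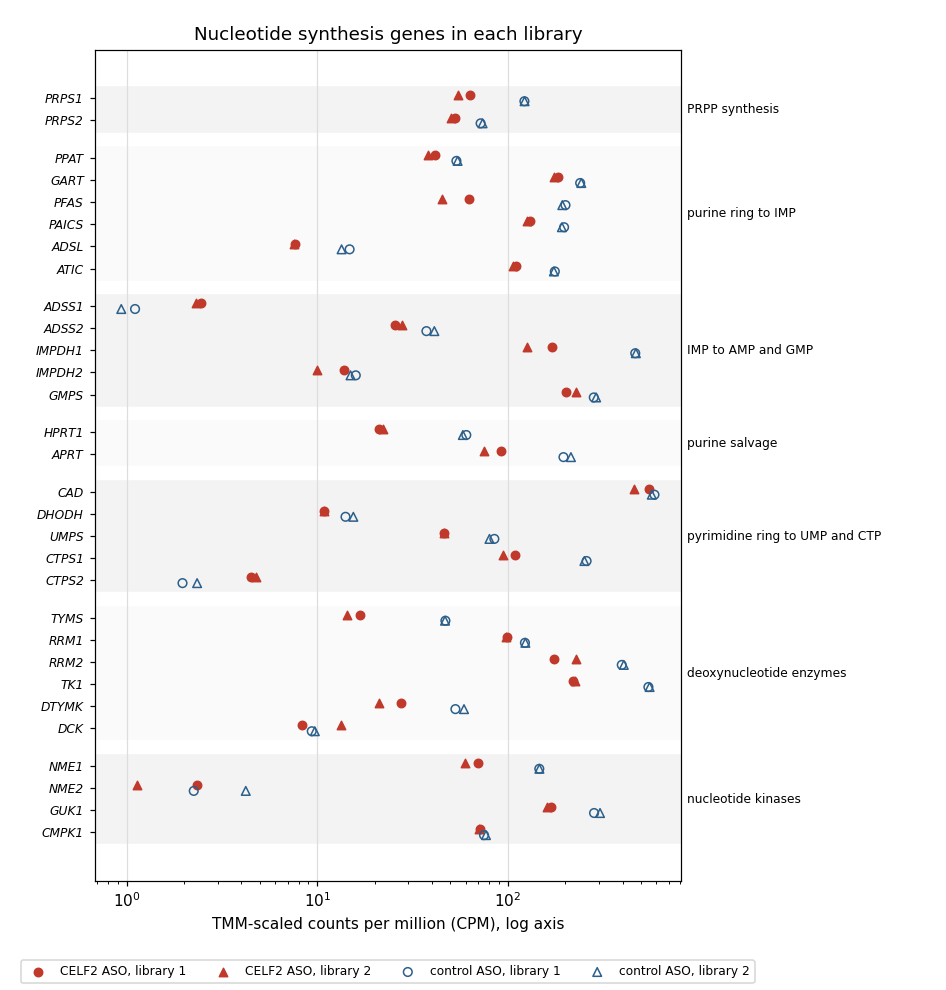
TMM-scaled CPM of each of the 30 genes (log axis) in the 2 CELF2 ASO libraries (filled red) and the 2 control ASO libraries (open blue), grouped by role. The red points lie left of the blue ones for 26 genes, right of them for ADSS1 and CTPS2, and mixed with them for DCK and NME2.

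Levels between genes were compared per kilobase of exon (RPKM, using exon lengths of GENCODE 29). In the control libraries the highest mean levels were those of TK1 at 296 RPKM, IMPDH1 at 128 RPKM and APRT at 114 RPKM, and the lowest were those of ADSS1 at 0.177 RPKM and CTPS2 at 0.391 RPKM. With the CELF2 ASO, TK1 was still first at 119 RPKM and ADSS1 last at 0.412 RPKM. CAD moved to rank 2 with the CELF2 ASO, against rank 5 in the controls, at 59.8 and 68.7 RPKM, while HPRT1 moved to rank 16 against rank 10, at 13.3 and 36.5 RPKM.

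PRPP synthetases, which feed every route that adds a ribose phosphate, fell. PRPS1 on the X chromosome had 63.0 and 54.6 CPM with the CELF2 ASO and 122 and 122 CPM with the control ASO, and fell 2.08-fold (edgeR adjusted p = 5.76e-05). Its paralog PRPS2, also X-linked, had 53.1 and 50.6 CPM with the CELF2 ASO and 72.0 and 73.7 CPM with the control, a fall of 1.4-fold (edgeR adjusted p = 0.00103). The groups lay apart for each gene, as they did in this direction for 38.4% of all tested genes. Per exon length, PRPS1 averaged 22.4 RPKM with the CELF2 ASO and 46.6 RPKM with the control, and PRPS2 averaged 18.8 and 26.4 RPKM.

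All 6 enzymes of the de novo purine route from PRPP to IMP fell, and their median was -0.65 on the log2 fold change scale. PFAS, the formylglycinamidine synthase of the middle of the route, had 62.7 and 44.9 CPM with the CELF2 ASO and 201 and 193 CPM with the control. It fell 3.66-fold (log2 fold change -1.87, SE 0.15, edgeR adjusted p = 7.21e-05), the largest fall of the 30 members. The 2 CELF2 ASO libraries differed from each other for PFAS, yet both were far below either control.

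PPAT, which catalyses the committed first step, had 41.6 and 38.0 CPM with the CELF2 ASO and 53.7 and 54.5 CPM with the control, a smaller fall of 1.36-fold (edgeR adjusted p = 0.00266). PAICS, a bifunctional enzyme of later steps, had 130.1 and 126 CPM with the CELF2 ASO and 197 and 192 CPM with the control and fell 1.52-fold. GART, which carries several activities in a single chain, had 184 and 174 CPM with the CELF2 ASO and 239.6 and 243 CPM with the control and fell 1.35-fold. ATIC, the enzyme of the closing steps, fell 1.62-fold and ADSL, which acts both here and in AMP synthesis, fell 1.86-fold at a low level of 7.68 and 7.53 CPM with the CELF2 ASO and 14.8 and 13.4 CPM with the control. The 6 genes of this route thus fell by sizes between 1.35-fold and 3.66-fold.

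PPAT and PAICS are transcribed away from each other from neighbouring starts on chromosome 4. In RefSeq's GRCh38.p14 table their start sites, at 56435615 on the minus strand for PPAT and at 56435752 on the plus strand for PAICS, are 137 bases apart, and 236 bases are common to the promoter windows of both (250 bases before to 50 bases after each start). These windows were searched on both strands for CACGTG (the E-box read by MYC and related factors), TTTCCCGC and TTTGGCGC (forms of the site of E2F factors) and CCAAT (the site of NF-Y, whose reverse is ATTGG). The 28 members found in the table have 42 windows, since some have several starts, and windows of neighbouring starts can overlap. CACGTG was in 6 of these 42 windows (14.3%) and in 7.26% of 35116 windows of all genes. The match of PPAT and that of PAICS are the same bases, counted in both windows. Either E2F form was in 4 member windows (9.52%) and in 2.27% of all windows. These 4 windows belong to GART, PRPS2, TYMS and DCK. The first 3 of these genes fell 1.35-fold, 1.4-fold and 3-fold, and DCK was not called. CCAAT was in 12 member windows (28.6%) and in 34.6% of all windows. The member shares thus rest on few matches. A match is a run of letters and not a sign of binding. The windows below are those of PPAT, whose single CACGTG lies in the stretch shared with PAICS, of PFAS, which fell most, and of TYMS and TK1 (1 of its 2 windows), which lead to thymidylate by separate routes and both fell. They read 5′ to 3′ on the gene's strand (PPAT chr4:56435566-56435865, minus; PFAS chr17:8249039-8249338, plus; TYMS chr18:657403-657702, plus; TK1 chr17:78187003-78187302, minus), with motif matches in capitals.
PPAT: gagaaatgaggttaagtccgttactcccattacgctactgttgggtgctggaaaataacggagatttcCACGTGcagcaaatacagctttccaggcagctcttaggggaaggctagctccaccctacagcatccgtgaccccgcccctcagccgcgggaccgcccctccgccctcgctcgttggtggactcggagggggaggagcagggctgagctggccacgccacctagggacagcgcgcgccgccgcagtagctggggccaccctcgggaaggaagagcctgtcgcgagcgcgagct
PFAS: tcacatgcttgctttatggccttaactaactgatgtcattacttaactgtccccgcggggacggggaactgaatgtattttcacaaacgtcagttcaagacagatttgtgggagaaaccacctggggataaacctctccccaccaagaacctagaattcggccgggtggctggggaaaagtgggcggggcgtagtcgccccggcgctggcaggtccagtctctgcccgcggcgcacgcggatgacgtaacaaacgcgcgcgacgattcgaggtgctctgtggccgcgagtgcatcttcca
TYMS: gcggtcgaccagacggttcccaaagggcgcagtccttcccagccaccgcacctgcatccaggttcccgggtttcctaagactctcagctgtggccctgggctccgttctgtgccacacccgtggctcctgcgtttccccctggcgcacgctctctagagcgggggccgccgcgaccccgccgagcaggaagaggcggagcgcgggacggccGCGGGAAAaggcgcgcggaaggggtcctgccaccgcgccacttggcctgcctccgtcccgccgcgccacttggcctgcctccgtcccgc
TK1: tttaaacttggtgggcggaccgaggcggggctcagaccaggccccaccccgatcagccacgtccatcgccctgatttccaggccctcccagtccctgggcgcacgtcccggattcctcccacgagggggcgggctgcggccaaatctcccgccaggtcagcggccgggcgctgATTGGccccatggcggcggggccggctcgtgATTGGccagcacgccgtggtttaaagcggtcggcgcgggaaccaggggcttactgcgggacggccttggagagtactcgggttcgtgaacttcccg
The capitals mark CACGTG in PPAT, GCGGGAAA (the reverse of TTTCCCGC) in TYMS and 2 copies of ATTGG in TK1. None of the searched motifs is in this PFAS window or in TK1's other window (chr17:78187155-78187454, minus).

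From IMP, IMPDH1 and GMPS of the GMP branch were lower, IMPDH2 was not called, and the AMP branch split by isoform. IMPDH1, an IMP dehydrogenase of the rate-limiting step to GMP, had 169.6 and 126 CPM with the CELF2 ASO and 466 and 469.7 CPM with the control and fell 3.16-fold (log2 fold change -1.66, SE 0.13, edgeR adjusted p = 5.73e-05). IMPDH2, the isoform known as the main one of many proliferating cells, was low in this table, at 13.8 and 9.96 CPM with the CELF2 ASO and 15.9 and 15.0 CPM with the control. Its log2 fold change of -0.37 (SE 0.16) missed the threshold (edgeR adjusted p = 0.0873), but passed without CELF2_LNA_ASO replicate 1 (adjusted p = 1.02e-06) and with no filter on low counts (adjusted p = 0.00659), within a range of 1.02e-06 to 0.27 over the settings tried. The annotation shows 3.35% of IMPDH2's exon bases shared with a gene on the other strand. How reads that map to several genes were counted is not given in the sources used here, so the low level of IMPDH2 is uncertain. GMPS, the GMP synthase, fell 1.34-fold, to 201 and 227 CPM with the CELF2 ASO against 282 and 291 CPM with the control.

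ADSS1 and ADSS2 both make adenylosuccinate on the way to AMP, ADSS1 being known from muscle. ADSS2 had 25.5 and 27.7 CPM with the CELF2 ASO and 37.4 and 41.2 CPM with the control and fell 1.48-fold (edgeR adjusted p = 0.00187). ADSS1 had 2.45 and 2.3 CPM with the CELF2 ASO and 1.11 and 0.938 CPM with the control and rose 2.31-fold (log2 fold change 1.21, SE 0.24, edgeR adjusted p = 0.00373). This rise rests on 68 and 55 reads in the CELF2 ASO libraries and 31 and 22 reads in the control libraries, and the groups did not overlap.

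Both purine salvage enzymes fell, each by a larger fitted fold than 5 of the 6 genes from PRPP to IMP. HPRT1, which recovers hypoxanthine and guanine, had 21.0 and 22.1 CPM with the CELF2 ASO and 60.6 and 58.1 CPM with the control, a fall of 2.75-fold (log2 fold change -1.46, SE 0.08, edgeR adjusted p = 1.32e-05). APRT, which recovers adenine, had 92.1 and 74.6 CPM with the CELF2 ASO and 196 and 214 CPM with the control, a fall of 2.46-fold (edgeR adjusted p = 6.43e-05). The summed level of the 2 salvage genes was 113 and 96.8 CPM with the CELF2 ASO and 256 and 272 CPM with the control, a ratio of 0.397, against a ratio of 0.589 for the 6 genes from PRPP to IMP. The difference between these ratios was not tested.

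**Figure D2:**
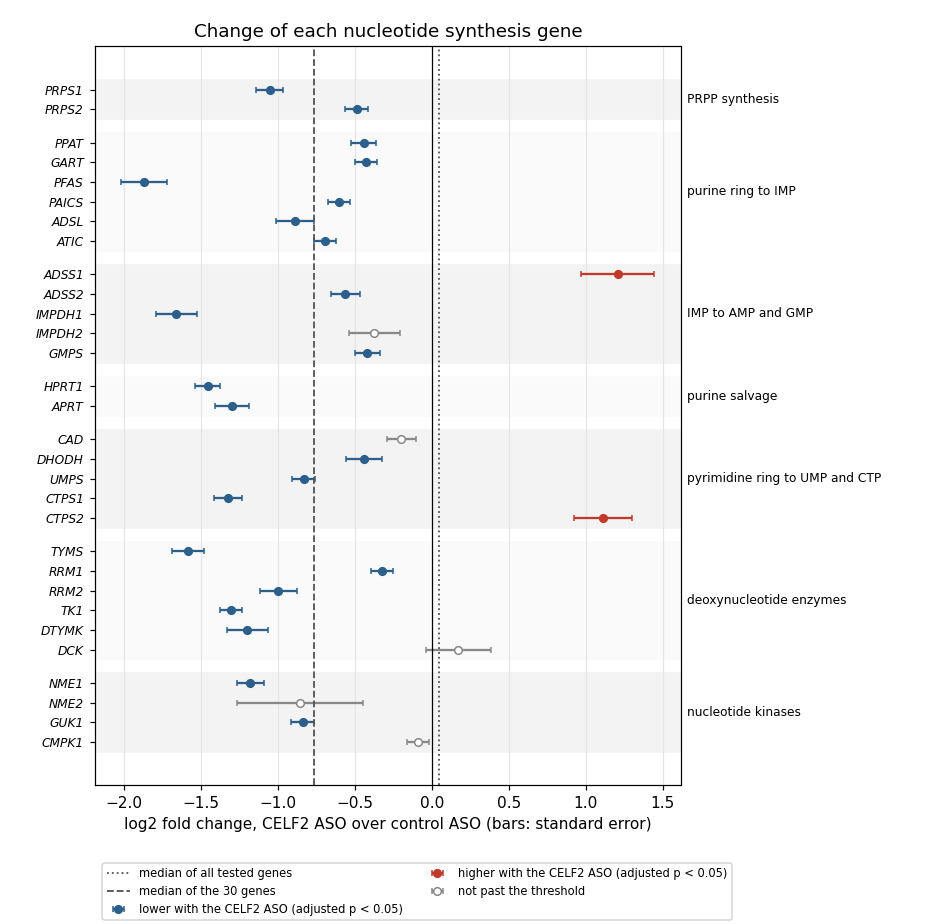
Log2 fold change of each gene, CELF2 ASO over control ASO, with its standard error, from edgeR on 2 libraries per group. Of the 30 genes, 23 (filled blue) are called lower, 2 (filled red) higher and 5 (open grey) neither, and the median of the 30 lies at -0.77 against 0.04 for all tested genes.

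Of the 5 pyrimidine genes, 3 fell (DHODH, UMPS and CTPS1), CTPS2 rose and CAD did not pass the threshold. CAD, the multifunctional enzyme of the opening steps, had 548 and 460.3 CPM with the CELF2 ASO and 588 and 569.5 CPM with the control. Its log2 fold change was -0.20 (SE 0.10, edgeR adjusted p = 0.113), with groups that lay apart but close together. It passed without CELF2_LNA_ASO replicate 1 (adjusted p = 5.52e-11) and with no filter on low counts (adjusted p = 0.00396), within a range of 5.52e-11 to 0.563 over the settings tried. DHODH, the mitochondrial dehydrogenase of the route, fell 1.36-fold (edgeR adjusted p = 0.0144), with 10.9 and 10.8 CPM under the CELF2 ASO and 14.1 and 15.5 CPM under the control. The call on DHODH was lost when only library totals set the scale (adjusted p = 0.05) and when control_LNA_ASO replicate 2 was left out (adjusted p = 0.152), within a range of 0.000373 to 0.152. UMPS, which completes UMP, had 46.3 and 46.3 CPM with the CELF2 ASO and 85.0 and 80.1 CPM with the control and fell 1.78-fold (edgeR adjusted p = 8.07e-05).

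The CTP synthases moved in opposite directions. CTPS1, the isoform known to be needed by dividing lymphocytes, had 109 and 94.6 CPM with the CELF2 ASO and 259 and 252 CPM with the control and fell 2.51-fold (log2 fold change -1.33, SE 0.09, edgeR adjusted p = 2.42e-05). CTPS2, encoded on the X chromosome, had 4.51 and 4.77 CPM with the CELF2 ASO and 1.96 and 2.34 CPM with the control and rose 2.16-fold (log2 fold change 1.11, SE 0.19, edgeR adjusted p = 0.00183). CTPS2 was counted with 125 and 114 reads in the CELF2 ASO libraries and 55 and 55 reads in the control libraries, and the groups did not overlap.

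The balance within each paralog pair was followed per library as the share of the first gene in the sum of both, per exon length. CTPS1 made up 92.1% and 90.5% of its pair in the CELF2 ASO libraries and 98.4% and 98.1% in the control libraries. IMPDH1 made up 90.3% and 90.6% against 95.7% and 96.0% in the controls. PRPS1 made up 55.5% and 53.2% against 64.1% and 63.6% in the controls. In the AMP branch, ADSS1 made up 5.75% and 5.01% with the CELF2 ASO, against 1.85% and 1.43% in the controls. In these 4 pairs the gene with the higher level in the controls had a smaller share with the CELF2 ASO, and the libraries of the groups did not overlap. The order within a pair uses the control level, which is itself compared, and well-expressed genes in general also fell more often. The level of IMPDH2 in its pair is uncertain. With 2 libraries a group, the two-sided exact permutation test gave p = 0.333 for each of these 4 pairs, the smallest value it can give. For NME1 and NME2 the shares overlapped, at 95.8% and 97.6% for NME1 with the CELF2 ASO and 98.0% and 96.4% in the controls (exact permutation p = 0.667).

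**Figure D3:**
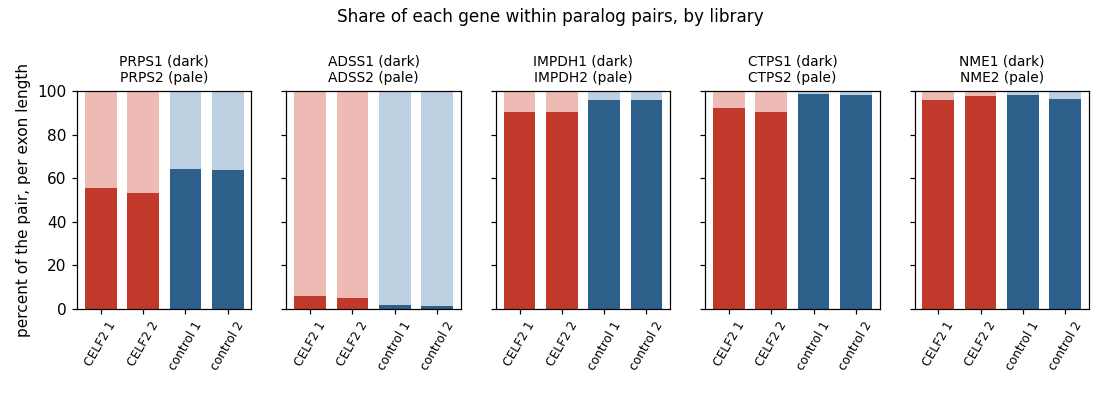
Share of each gene within 5 paralog pairs, in percent of the sum of both per exon length, for the 2 CELF2 ASO libraries (red) and the 2 control libraries (blue), with the first gene dark and the second pale. The pale part is larger with the CELF2 ASO for PRPS, IMPDH and CTPS, the dark part is larger for ADSS, and the NME libraries overlap.

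Deoxynucleotide enzymes fell except DCK. TYMS, which methylates dUMP to thymidylate, had 16.8 and 14.4 CPM with the CELF2 ASO and 47.1 and 46.8 CPM with the control and fell 3-fold (log2 fold change -1.59, SE 0.10, edgeR adjusted p = 2.14e-05). TK1, the cytosolic kinase that salvages thymidine and is known to peak in S phase, had 220.3 and 224 CPM with the CELF2 ASO and 546 and 554 CPM with the control and fell 2.48-fold. DTYMK, which phosphorylates the product of both, had 27.6 and 21.1 CPM with the CELF2 ASO and 53.1 and 58.9 CPM with the control and fell 2.3-fold (edgeR adjusted p = 0.000216). All 3 genes of the thymidylate routes were thus lower in both CELF2 ASO libraries than in either control, as were 38.4% of all tested genes. TYMS is uncertain in level, since 46.6% of its exon bases are shared with opposite-strand genes, most of them with ENOSF1.

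The subunits of ribonucleotide reductase fell by unequal amounts. RRM2, the small subunit whose amount is known to limit the enzyme in dividing cells, had 174 and 227 CPM with the CELF2 ASO and 396 and 406 CPM with the control, a fall of 2-fold (log2 fold change -1.0, SE 0.12, edgeR adjusted p = 0.000346). RRM1, the large subunit, had 98.5 and 98.3 CPM with the CELF2 ASO and 123 and 124 CPM with the control, a fall of 1.25-fold (edgeR adjusted p = 0.00545). Leaving out control_LNA_ASO replicate 1 gave RRM1 an adjusted p of 0.0608 and leaving out control_LNA_ASO replicate 2 one of 0.0713, within a range of 1.57e-08 to 0.0713, in fits that take their spread from the CELF2 ASO pair. Its log2 fold change stayed between -0.36 and -0.32 when any library was left out, against -0.33 with all 4 libraries. Per exon length, RRM2 averaged 37.7 RPKM with the CELF2 ASO and 75.3 RPKM with the control, and RRM1 averaged 23.6 RPKM and 29.5 RPKM, with 20.2% of RRM2's exon bases shared with a same-strand gene. RRM2B, an alternative small subunit named after its values were seen, had 14.6 and 11.8 CPM with the CELF2 ASO and 13.2 and 13.7 CPM with the control and missed the threshold (edgeR adjusted p = 0.898), with a sign that depended on the setting.

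DCK, the kinase of deoxycytidine and of several nucleoside drugs, had 8.29 and 13.3 CPM with the CELF2 ASO and 9.36 and 9.72 CPM with the control. The control libraries lay between the CELF2 ASO libraries, and the log2 fold change of 0.17 (SE 0.21) did not pass (edgeR adjusted p = 0.526). Without CELF2_LNA_ASO replicate 1 it was 0.48 (adjusted p = 0.000225) and without CELF2_LNA_ASO replicate 2 it was -0.22 (adjusted p = 0.177), within a range of 0.000225 to 0.728, so its direction rests on the library kept.

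Of the kinases that bring nucleotides to the di- and triphosphate forms, NME1 and GUK1 fell. NME1, a nucleoside diphosphate kinase, had 69.4 and 59.7 CPM with the CELF2 ASO and 146 and 146 CPM with the control and fell 2.27-fold (edgeR adjusted p = 3.87e-05). GUK1, the guanylate kinase, had 168 and 161 CPM with the CELF2 ASO and 283 and 305 CPM with the control and fell 1.79-fold (edgeR adjusted p = 8.56e-05). CMPK1, the kinase of UMP and CMP, was close to level, with 71.3 and 71.0 CPM under the CELF2 ASO and 75 and 76.8 CPM under the control, a log2 fold change of -0.09 (SE 0.07, edgeR adjusted p = 0.296) that turned to 0.023 with library totals alone.

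NME2, the near-identical neighbour of NME1, had 2.34 and 1.13 CPM with the CELF2 ASO and 2.25 and 4.22 CPM with the control, overlapping groups that missed the threshold (edgeR adjusted p = 0.116). It was called lower without CELF2_LNA_ASO replicate 1 (adjusted p = 2.92e-06), without control_LNA_ASO replicate 1 (adjusted p = 0.000312) and with no filter on low counts (adjusted p = 0.00134), within a range of 2.92e-06 to 0.402. A readthrough gene, NME1-NME2, shares 18.6% of the exon bases of NME1 and 22.9% of those of NME2 and was itself listed with 2 reads in each of the 4 libraries. The separate levels of NME1 and NME2 are therefore uncertain. Exon bases were shared with another annotated gene in 11 of the 30 members, of which ADSL had 18.9% of its bases shared and the others not yet named between 1.51% and 6.17%.

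Further genes of nucleotide metabolism, from lists that hold no member, moved both ways. Of 65 tested genes in these lists, 29 fell and 13 rose, or 44.6% and 20%, where 27.9% of all tested genes were lower and 27.5% higher. Among all genes with a mean of at least 10 CPM these shares were 44.3% and 26.2%. The list genes were not held to that limit, so the 2 sets are not a like comparison. The lists' median log2 fold change was -0.14. Of 5 tested genes for nucleoside transporters, 3 fell and none rose. SLC29A1, the main equilibrative nucleoside transporter and a route of entry for nucleoside drugs, had 106 and 94.8 CPM with the CELF2 ASO and 348 and 337 CPM with the control and fell 3.41-fold (edgeR adjusted p = 7.35e-06), and SLC29A2 fell 2.4-fold and SLC29A4 1.98-fold. Of 11 further kinases, 5 fell and 2 rose. The mitochondrial NME4 fell 3.48-fold and AK6 fell 1.8-fold, whereas AK9 and NME7 rose 2.4-fold and 1.62-fold.

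Among 16 tested genes of further synthesis, salvage and interconversion, 8 fell and 2 rose, or 50% and 12.5%, where 27.9% of all tested genes were lower and 27.5% higher. TK2, the mitochondrial thymidine kinase, had 34.3 and 33.1 CPM with the CELF2 ASO and 9.75 and 10.1 CPM with the control and rose 3.39-fold (edgeR adjusted p = 1.35e-05), opposite in direction to the cytosolic TK1. GMPR2, a reductase that returns GMP to IMP, rose 1.73-fold. PNP, the purine nucleoside phosphorylase, fell 1.93-fold, the adenosine kinase ADK fell 1.8-fold and the uridine-cytidine kinase-like gene UCKL1 fell 1.87-fold.

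Of 21 tested genes of breakdown and pool cleaning, 10 fell and 3 rose, or 47.6% and 14.3%, where 27.9% of all tested genes were lower and 27.5% higher. With a mean of at least 10 CPM, a limit not set for this list, 44.3% of genes were lower. The adenosine deaminases diverged, since ADA, the intracellular enzyme, had 26.4 and 25.4 CPM with the CELF2 ASO and 75.4 and 72.3 CPM with the control and fell 2.85-fold (edgeR adjusted p = 9.93e-06). ADA2, the secreted enzyme, had 45.9 and 50.9 CPM with the CELF2 ASO and 6.64 and 7.93 CPM with the control and rose 6.65-fold (edgeR adjusted p = 6.65e-06). XDH, which makes uric acid, rose 5-fold and NT5M, a mitochondrial deoxynucleotidase, rose 1.72-fold. ITPA and DCTPP1, which clear abnormal nucleotides from the pool, fell 2.59-fold and 2.5-fold.

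The folate genes that supply carbon units to purines and thymidylate were mixed, with 6 of 12 higher (50%) and 3 lower (25%). The shares of all tested genes were 27.5% higher and 27.9% lower. ALDH1L2, a mitochondrial folate dehydrogenase, had 133 and 123 CPM with the CELF2 ASO and 7.79 and 9.33 CPM with the control and rose 15-fold, the mitochondrial SHMT2 rose 1.67-fold, and MTHFD2 rose 1.31-fold. FPGS, which traps folates in the cell, fell 2.67-fold, the cytosolic MTHFD1 fell 1.36-fold and SHMT1 fell 1.28-fold. MTHFD2 lost its call without either control library (adjusted p = 0.0981 without replicate 1 and 0.0624 without replicate 2, within a range of 1e-15 to 0.0981), and SHMT1 without control_LNA_ASO replicate 1 (adjusted p = 0.0599, the highest of a range from 5.6e-08).

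**Figure D4:**
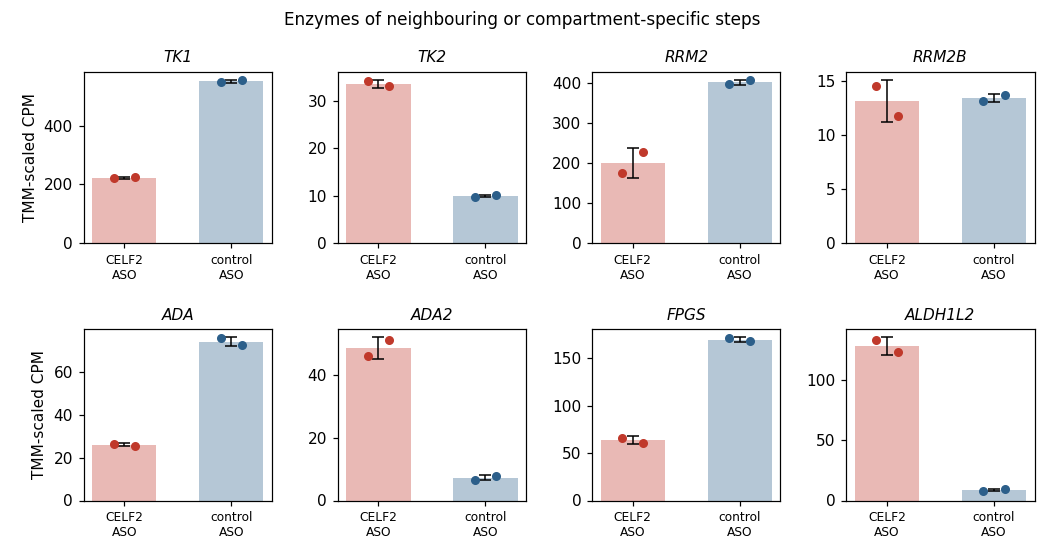
TMM-scaled CPM of 4 pairs of genes in the CELF2 ASO group (red, left) and the control ASO group (blue, right), with bars for means, whiskers for SD and points for the 2 libraries of each group. TK1, RRM2, ADA and FPGS are lower with the CELF2 ASO while TK2, ADA2 and ALDH1L2 are higher, and RRM2B did not pass the threshold.

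Markers of cell division mostly moved in the same direction as the members. Of 16 proliferation genes, 13 fell (81.2%), 3 did not pass and none rose (median -0.84 on the log2 fold change scale). Among all tested genes 27.9% were lower, and 44.3% of those with a mean of at least 10 CPM. The 3 that did not pass were MCM3, CDK1 and CCNE2, with log2 fold changes of -0.12, 0.06 and 0.13. The summed level of the 16 genes was 3111 and 3210.1 CPM with the CELF2 ASO and 6117 and 6149 CPM with the control ASO. MCM5, part of the helicase that opens DNA for replication, fell 2.88-fold, CCNB1, a cyclin of mitosis, fell 4.15-fold and MKI67, which codes for the Ki-67 antigen, fell 1.75-fold. MYC, a known activator of nucleotide synthesis genes, had 831 and 571 CPM with the CELF2 ASO and 1028 and 1041 CPM with the control and fell 1.48-fold (edgeR adjusted p = 0.0302), though not when only library totals set the scale (adjusted p = 0.107, within a range of 3.97e-68 to 0.107). The stress factor gene ATF4, a known activator of folate genes, rose 4.79-fold. The part of any of these in the fall of the members was not tested.

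**Figure D5:**
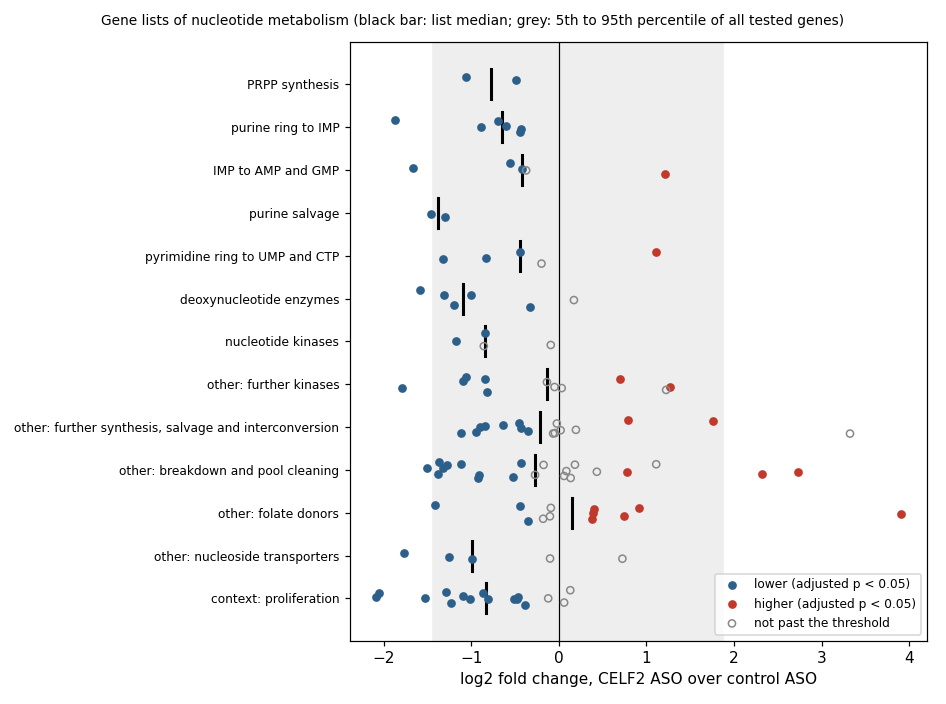
Log2 fold change, CELF2 ASO over control ASO, of every tested gene in the member groups, in the other lists of nucleotide metabolism and in the proliferation list, with list medians as black bars and the 5th to 95th percentile of all tested genes, -1.44 to 1.88, in grey. Medians of the member groups lie between -0.42 and -1.38, while that of the folate list lies at 0.14.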

How the data were processed

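RNA was sequenced from RPMI 8226 cells (spelled RPMI82266 in the sample labels) in 2 libraries with the CELF2 LNA ASO and 2 with the control LNA ASO. The deposited values are read counts per Ensembl gene, as whole numbers without normalization, between 23599190 and 29161298 per library. Per the submitters' processing notes, the aligner STAR 2.7.11b, the counter featureCounts 2.0.8 (Subread), Salmon 1.10.0 and the build GRCh38 were used, after bcl2fastq. Not given in the sources used here are the annotation release, the strand setting and how multi-gene reads were treated. The labels name both poly(A) selection and removal of ribosomal RNA. Of 79029 rows, 97 name no gene, hold 1 to 3 counts per library and were left out.

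The test was that of edgeR 4.0.16 under R 4.3.3 (filterByExpr, minimum count 10 and minimum total 15; TMM; two-sided robust quasi-likelihood test; no covariate; threshold 0.05 after Benjamini-Hochberg adjustment over 19511 genes). SEs are the absolute log2 fold change over the square root of F. CPM is scaled by the TMM-adjusted library size. Alternatives used limma 3.58.1 and DESeq2 1.42.0. The replicates of each group differed beyond sampling noise (chi-square per degree of freedom 18.5 for the CELF2 ASO pair and 3.38 for the control pair). The count test was tested on simulated data. Symbols came from a name table (61481 IDs), and positions, exon lengths and shared exon bases from GENCODE 29 on GRCh38. Promoter sequences are RefSeq's, on GRCh38.p14; ADSL and IMPDH2 are not among them.

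The members and lists were chosen with earlier results of these data known. The genes named are all members, CELF2, and up to 3 rises and 3 falls with the smallest adjusted p in each list of further nucleotide metabolism; markers at 0 or near 0 are named too. A gene that this rule picks is not reported here. RRM2B, GMPR, CMPK2, SAMHD1, NT5C3A, MYC, ATF4, MKI67, MCM5, CCNB1, MCM3, CDK1, CCNE2 and the cell type markers with values were named after their values were seen.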

Additional observations from a re-analysis of the deposited data

How the results depend on the processing

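Over 12 alternatives (scaling, filters, DESeq2, limma-voom, group weights, the replicate block and leaving out each library), members lower numbered 21 to 26 and members higher 2 or 3, and 23 of 30 members kept both direction and side of the threshold in every one. The libraries' numbers are not said to pair them, and the deviations of same-numbered libraries from their group means correlated at 0.06. With the number as a block, 24 members were lower and 2 higher, and IMPDH2 passed (adjusted p = 0.0456). With library totals alone the median of all genes was 0.16 against 0.04 with TMM. Such a change of scale shifts every gene by nearly the same amount. The members' median therefore lay 0.81 below that of all genes under either scaling, which is no check of that difference. CMPK1 (0.023) and RRM2B (0.10) changed sign with library totals alone, and the members' summed ratio was 0.606 (an alternative chosen after seeing the data). RRM2B also changed sign with the 1 CPM filter (0.028). Leaving out each library in turn, log2 fold changes ranged from -0.22 to 0.48 for DCK, -0.18 to 0.10 for RRM2B and -0.50 to 0.50 for SAMHD1, with the ends set by which CELF2 ASO library was left out, and SAMHD1 was -0.00028 with group weights. Without length scaling, the shares of ADSS1, IMPDH1 and CTPS1 shifted by 5.67, -4.23 and -3.55 percentage points (CELF2 ASO minus control). Counting of CACGTG in the 250 bases before the start alone gave 4 of 42 member windows (9.52%) and 6.34% of all windows. A fit that leaves out a CELF2 ASO library takes its spread from the control pair alone, and the lone library is assumed to vary like them; a fit that leaves out a control library takes it from the CELF2 ASO pair. Depth limits ADSS1, CTPS2 and NME2, which had under 130 reads in each library.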

Other observations

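A few genes of nucleotide metabolism, named after their values were seen, differed between the CELF2 ASO libraries by more than most members did. GMPR, the GMP reductase, had 5.88 and 20.4 CPM with the CELF2 ASO and 0.822 and 1.83 CPM with the control, and it did not pass (edgeR adjusted p = 0.0648). CMPK2, a mitochondrial nucleotide kinase known as an interferon-induced gene, had 1.87 and 4.94 CPM with the CELF2 ASO and 1.5 and 1.36 CPM with the control (edgeR adjusted p = 0.0661). NT5C3A, a pyrimidine nucleotidase that interferon is also known to induce, had 36.5 and 95.1 CPM with the CELF2 ASO and 28.5 and 32.3 CPM with the control (edgeR adjusted p = 0.207). SAMHD1, which hydrolyses deoxynucleotides and restricts viruses, had 163 and 319 CPM with the CELF2 ASO and 222 and 233 CPM with the control, so that a CELF2 ASO library lay on either side of both controls (edgeR adjusted p = 0.872). The gap did not have the same direction in all genes, since CELF2_LNA_ASO replicate 1 was the higher for the member NME2 (2.34 and 1.13 CPM). In each of the 4 genes GMPR, CMPK2, NT5C3A and SAMHD1, CELF2_LNA_ASO replicate 2 was the higher of the pair, as it was for DCK. Each passed in at least 1 fit that left out a CELF2 ASO library. Without CELF2_LNA_ASO replicate 1 the adjusted p was 2.37e-128 for GMPR, 1.85e-12 for CMPK2, 3.73e-125 for NT5C3A and 1.39e-23 for SAMHD1, in fits that take their spread from the control pair alone, and the highest adjusted p over the settings tried was 0.508, 0.315, 0.681 and 1.00 for the same genes.

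Gaps between the libraries of a group were compared on the log2 CPM scale. In 21 of the 30 members the CELF2 ASO gap was larger than the control gap, and in 9 it was smaller. Over genes in general the CELF2 ASO libraries also differed more, at a chi-square of 18.5 per degree of freedom where the control libraries had 3.38. The share of all tested genes with the larger CELF2 ASO gap is not given here, so this count does not set the members apart. UMPS, DHODH and RRM1 differed by no more than 0.00286 on the log2 scale between the CELF2 ASO libraries, while PFAS differed by 0.482, IMPDH2 by 0.471, IMPDH1 by 0.428 and NME2 by 1.05.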
